A study of Homo sapiens with 4 samples.

Results

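The SLC25 genes encode the mitochondrial carriers. They were taken as every row of the expression table whose symbol was SLC25A followed by a number. The rule found 50 rows of 57820, which carried 48 different symbols. SLC25A10 and SLC25A6 each had a second row, listed at 0 TPM (transcript abundance scaled to a fixed total per library) in all 4 libraries; the second SLC25A6 row is the Y copy of a gene shared by the X and Y chromosomes. Of the 50 rows, 38 averaged 1 TPM or more across the libraries and were tested, and 12 were not.

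RNA came from 786-0, an established human renal carcinoma cell line, grown in DMEM with 10% FBS. The shGLUD1 cells (2 libraries) carried a short hairpin RNA against GLUD1, the mitochondrial glutamate dehydrogenase, and the shNT cells (2 libraries) a hairpin labelled NT as the control. Amino acids had been withheld from all of the cells for 12 h, so the comparison is between hairpins under starvation, and fed cells were not analysed here. Nothing in the labels tells separate cultures from repeat libraries of the same cells, and p-values here reflect library-to-library scatter that may be only technical. In bulk RNA, fewer cells with a transcript and less of it per cell cannot be told apart. The labels name 1 hairpin condition against GLUD1 and give no hairpin sequence.

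Mitochondrial carriers are small proteins of the inner mitochondrial membrane, and each moves a defined set of metabolites, nucleotides or cofactors between the cytosol and the matrix. Most of them exchange one solute for another. Through them ATP leaves the matrix, phosphate and ADP enter it, reducing equivalents pass in as malate and aspartate move, and citrate reaches the cytosol for lipid synthesis. Glutamate, which GLUD1 converts to alpha-ketoglutarate in the matrix, can enter by carriers of this family.

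GLUD1 itself had 13.5 and 19.8 TPM in shGLUD1, against 18.1 and 17.4 TPM in shNT. The library labelled shGLUD1 replicate 2 was thus above both shNT libraries, and GLUD1 did not pass (log2 fold change -0.11, SE 0.19, limma adjusted p = 0.631). Throughout, shGLUD1 means the libraries with that label, and each direction rests on the label. TPM are shares of a library. Cytosolic ribosomal protein genes held 22.5% and 20.6% of all TPM in shGLUD1, against 30.7% and 31.2% in shNT, and the median log2 fold change of all 12524 genes tested was 0.63. Each change is therefore also given after dividing every library by its median ratio to the other libraries (rescaled values), where the median of all genes was -0.01; on that scale GLUD1 was lower (-0.84, SE 0.15, adjusted p = 0.00201). The renal markers PAX8, EPAS1, KRT8, KRT18 and VIM averaged 1 TPM or more, while PAX2 and CDH6 were listed at no more than 0.12 TPM. The 4 leukocyte markers summed to 0.04 and 0.52 TPM in shGLUD1 and to 1.12 and 1.24 TPM in shNT, and the 3 endothelial markers found to at most 0.41 TPM. The 4 fibroblast markers, which carcinoma lines can also express, summed to 54.1 and 58.9 TPM in shGLUD1 and to 22.9 and 19.1 TPM in shNT, and their part in the results was not tested.

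The promoters of 6 carriers are shown because these genes moved in opposite directions on TPM. SLC25A5, SLC25A3 and SLC25A22 rose, whereas SLC25A6, SLC25A38 and SLC25A26 fell. SLC25A5 and SLC25A3 had log2 fold changes of 0.69 and 0.84, beside a median of 0.63 for all genes. Neither passed after rescaling (-0.09 and 0.06), so for them the contrast rests on TPM. No promoter window was found for SLC25A37, which also fell. Each sequence runs from 250 bases before to 50 bases after a RefSeq gene start on GRCh38.p14. Capitals mark matches, on either strand, to the GC box GGGCGG, the CCAAT box CCAAT, the TATA box TATAAA, the E-box CACGTG and the heat shock element pair GAANNTTC. The windows are chrX:119468194-119468493, plus strand, for SLC25A5; chr12:98593436-98593735, plus strand, for SLC25A3; chr11:798232-798531, minus strand, for SLC25A22; chrX:1392064-1392363, minus strand, for SLC25A6; chr3:39383120-39383419, plus strand, for SLC25A38; and chr3:66220492-66220791, plus strand, for SLC25A26.
SLC25A5: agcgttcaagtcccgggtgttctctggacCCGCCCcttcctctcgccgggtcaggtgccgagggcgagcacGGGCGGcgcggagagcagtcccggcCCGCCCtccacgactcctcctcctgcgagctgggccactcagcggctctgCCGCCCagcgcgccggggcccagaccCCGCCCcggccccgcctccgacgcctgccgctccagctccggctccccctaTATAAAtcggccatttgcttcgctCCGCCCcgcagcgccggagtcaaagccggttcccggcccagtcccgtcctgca
SLC25A3: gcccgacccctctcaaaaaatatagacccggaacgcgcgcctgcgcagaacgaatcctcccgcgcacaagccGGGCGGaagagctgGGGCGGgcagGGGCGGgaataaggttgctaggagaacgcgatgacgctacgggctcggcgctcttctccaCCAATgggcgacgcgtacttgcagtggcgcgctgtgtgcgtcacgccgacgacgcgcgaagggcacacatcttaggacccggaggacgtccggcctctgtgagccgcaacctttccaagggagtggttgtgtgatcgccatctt
SLC25A22: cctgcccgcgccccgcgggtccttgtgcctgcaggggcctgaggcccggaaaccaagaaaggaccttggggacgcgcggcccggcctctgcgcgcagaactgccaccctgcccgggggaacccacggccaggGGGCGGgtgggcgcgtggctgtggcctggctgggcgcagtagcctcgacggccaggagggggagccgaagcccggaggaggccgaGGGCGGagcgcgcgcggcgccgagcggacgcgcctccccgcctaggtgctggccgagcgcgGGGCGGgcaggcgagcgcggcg
SLC25A6: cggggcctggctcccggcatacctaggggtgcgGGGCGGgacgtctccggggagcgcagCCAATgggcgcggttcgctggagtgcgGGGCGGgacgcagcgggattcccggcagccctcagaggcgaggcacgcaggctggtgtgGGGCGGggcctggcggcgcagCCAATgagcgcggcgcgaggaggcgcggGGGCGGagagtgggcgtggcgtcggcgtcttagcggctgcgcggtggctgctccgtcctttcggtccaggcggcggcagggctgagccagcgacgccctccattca
SLC25A38: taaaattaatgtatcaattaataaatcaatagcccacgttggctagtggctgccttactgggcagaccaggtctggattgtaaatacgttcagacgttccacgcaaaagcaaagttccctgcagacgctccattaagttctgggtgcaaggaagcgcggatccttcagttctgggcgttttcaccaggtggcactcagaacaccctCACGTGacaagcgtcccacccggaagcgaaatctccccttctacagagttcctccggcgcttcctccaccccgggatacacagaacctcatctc
SLC25A26: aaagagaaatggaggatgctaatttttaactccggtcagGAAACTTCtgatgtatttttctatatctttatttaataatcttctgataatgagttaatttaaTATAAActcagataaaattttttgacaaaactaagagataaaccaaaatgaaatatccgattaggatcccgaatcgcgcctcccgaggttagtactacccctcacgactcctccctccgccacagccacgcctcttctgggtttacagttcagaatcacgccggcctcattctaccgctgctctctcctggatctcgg

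The 6 promoters differ in composition. GC content was 73.7% in SLC25A5, 64.0% in SLC25A3 and 79.0% in SLC25A22, and 75.7% in SLC25A6, 51.3% in SLC25A38 and 41.0% in SLC25A26. The ADP/ATP carrier genes SLC25A5 and SLC25A6, whose transcripts moved in opposite directions on TPM, hold 6 and 4 GC boxes. SLC25A5 has a TATA box and SLC25A6 has none, while SLC25A6 has 2 CCAAT boxes and SLC25A5 has none. The window of SLC25A26 lies inside the GENCODE gene (chromosome 3, 66133610 to 66388116), which begins further upstream, so it covers only 1 of its annotated starts. The window of SLC25A6 also lies wholly inside its GENCODE gene (chromosome X, 1386152 to 1392724, minus strand), which begins further upstream. The contrast in boxes between SLC25A5 and SLC25A6 therefore holds for these windows only.

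Promoter windows were found for 32 of the 38 tested carriers. A GC box was present in 24 of them, against 45.0% of all 35116 promoters of that length, and a CCAAT box in 16, against 34.6% of all promoters. A TATA box occurred in 2 carrier promoters (11.5% of all promoters), an E-box in 6 (7.26% of all) and the heat shock element pair in 2 (6.77% of all). The ATF4 element TGATGNAA occurred in 1 carrier promoter, that of SLC25A11 (3.62% of all promoters). The NRF1 core CGCATGCG and the ERR element TCAAGGTCA, held by 2.02% and 0.353% of all promoters, matched none of the 32. The 32 windows belong to carriers averaging 1 TPM or more, whereas the 35116 promoters were not limited to genes tested. The sets are therefore unlike, and a difference from other expressed genes was not tested. A match describes letters in these windows only.

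Across the family, 21 of the 38 tested carriers rose on TPM (55.3%, against 56.7% of all genes tested) and 4 fell (10.5%, against 7.77% of all genes), at a Benjamini-Hochberg adjusted p under 0.05 in limma. Those shares are near the background, against which the counts of groups and lists given further on also stand. The median log2 fold change of the carriers was 0.68, beside 0.63 for all genes. After rescaling, 6 carriers were higher (15.8%, against 22.7% of all genes) and 13 were lower (34.2%, against 28.4%), with a median of -0.07 beside -0.01 for all genes. Of the 38 carriers, 1 passed in opposite directions on the 2 scales, the oxoglutarate-malate carrier SLC25A11. Among all 12524 genes tested, 245 were higher on TPM and lower after rescaling.

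The groups did not overlap on TPM in 34 of the 38 carriers. In 28 both shGLUD1 libraries lay above both shNT libraries (73.7%, against 69.9% of all genes), and in 6 both lay below (15.8%, against 13.5% of all genes). Replicate 2 of shGLUD1 was the highest of the 4 libraries for 27 carriers (71.1%, against 63.7% of all genes) and lay above replicate 1 for 31 (81.6%, against 73.7%). Without shNT replicate 1 the TPM log2 fold changes of SLC25A37 and SLC25A38 were -0.36 and -0.43, beside -0.44 for each with all libraries. After rescaling, 3 carriers were higher without shGLUD1 replicate 1 (7.89%, against 18.0% of all genes), 1 without shGLUD1 replicate 2 (2.56%, against 14.4%) and 2 without shNT replicate 2 (5.26%, against 18.99%). Without shGLUD1 replicate 2, 8 were lower (20.5%, against 23.0%). A fit without 1 library leaves 1 library in its group, which is assumed to vary like the other group.

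**Figure D1:**
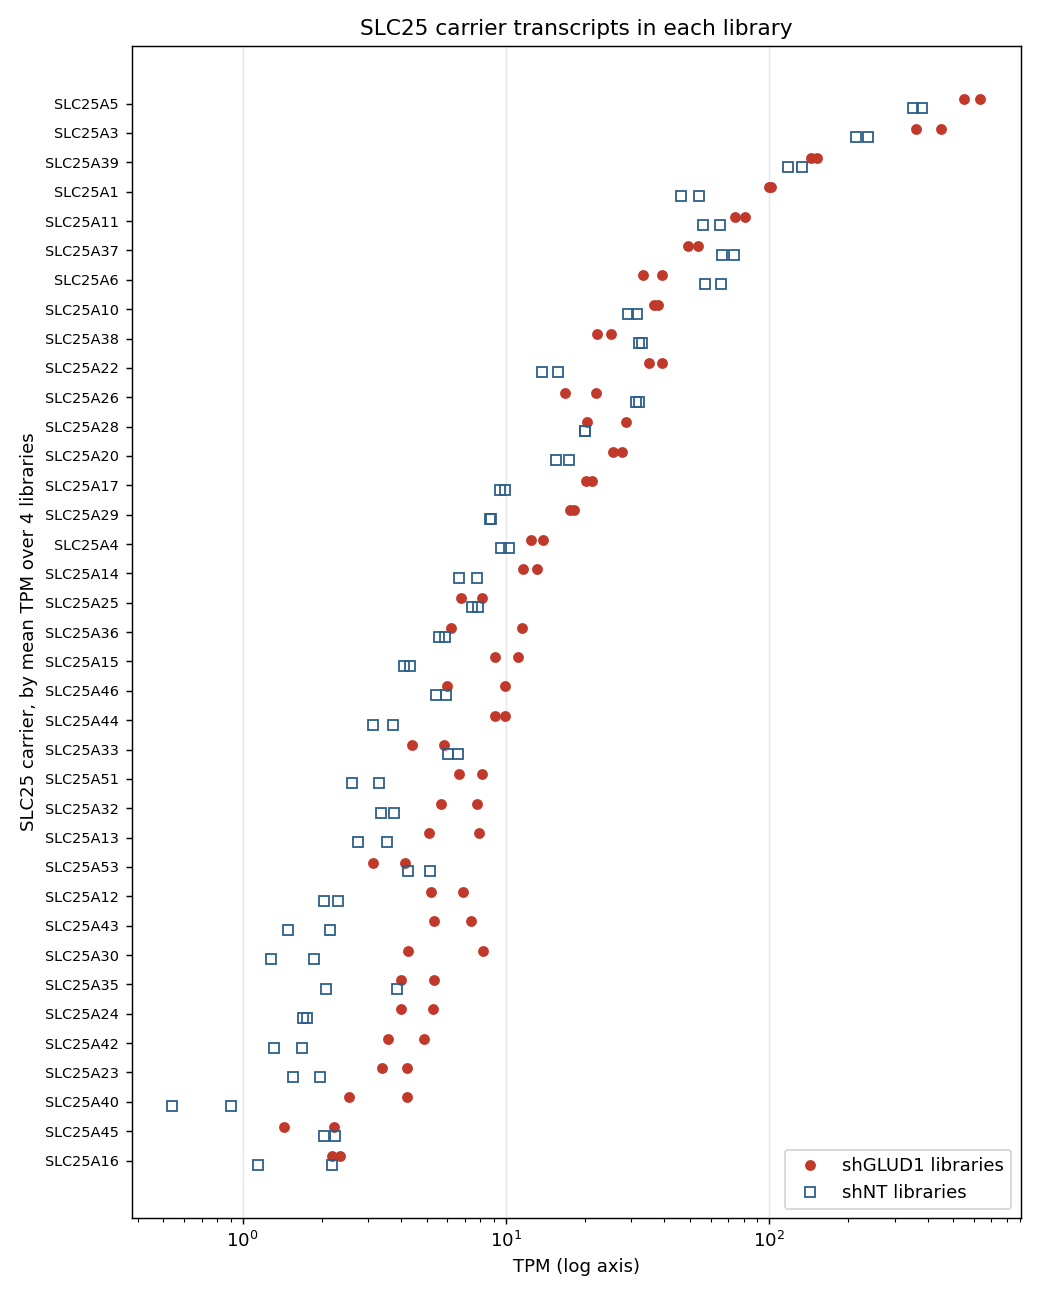
TPM (log axis) of 37 tested SLC25 carriers in each library, with 2 shGLUD1 libraries as filled circles above 2 shNT libraries as open squares in each row. Carriers run from SLC25A5, with a mean of 479 TPM over the 4 libraries, down to SLC25A16, with a mean of 1.97 TPM, and most shGLUD1 points lie to the right of the shNT points.

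A few carriers held most of the transcripts. TPM are scaled to transcript length, so levels can be set side by side between genes. SLC25A5 led with a mean of 479 TPM over the 4 libraries, followed by the phosphate carrier SLC25A3 at 315 TPM and the glutathione carrier SLC25A39 at 137 TPM. The order of these 3 was the same in every library. Across libraries the values of SLC25A5 and SLC25A3 overlapped, and those of SLC25A39 lay below both. Next came the citrate carrier SLC25A1 (75.5 TPM) and SLC25A11 (69.2 TPM), whose values over the 4 libraries overlapped. SLC25A37, a mitoferrin, averaged 60.8 TPM and SLC25A6 averaged 48.8 TPM, again with overlapping values.

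All SLC25 rows together summed to 1677 and 1896 TPM in shGLUD1, against 1255 and 1210 TPM in shNT, a log2 ratio of 0.53. The groups did not overlap, and an exact two-sided permutation test of 2 against 2 gave p = 0.33, the smallest it can give. After rescaling the log2 ratio of the sum was -0.24. SLC25A5 and SLC25A3 together made up 54.3% and 57.1% of the carrier TPM in shGLUD1, against 49.3% and 46.7% in shNT, so these carriers took a larger share of the family's transcripts in shGLUD1 (exact permutation p = 0.33).

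Glutamate can reach the matrix through the aspartate/glutamate group. All 3 of its tested members rose on TPM, as did 56.7% of all genes. After rescaling 2 were higher, as were 22.7% of all genes. SLC25A22 (ENSG00000177542, GRCh38 chromosome 11, 790475 to 798333, minus strand) encodes the glutamate carrier GC1, which imports glutamate, the substrate of GLUD1, with a proton. It stood at 39.2 and 35.1 TPM in shGLUD1, against 15.7 and 13.7 TPM in shNT, and the groups were far apart. It rose on both scales, by 1.28 (log2 fold change, SE 0.15, limma adjusted p = 5.6e-05) and by 0.54 (SE 0.16, adjusted p = 0.021) after rescaling. Under quantile normalization the change was 0.68 (limma adjusted p = 0.0108).

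SLC25A12 and SLC25A13 encode aralar and citrin, the calcium-regulated carriers that export aspartate in exchange for glutamate and so drive the malate-aspartate shuttle. SLC25A12 (chromosome 2, 171784370 to 171999859, minus strand) was at 5.21 and 6.86 TPM in shGLUD1, against 2.04 and 2.31 TPM in shNT (log2 fold change 1.14, SE 0.24, adjusted p = 0.00187; rescaled 0.53, SE 0.19, adjusted p = 0.0392). SLC25A13 (chromosome 7, 96120220 to 96322147, minus strand) was at 5.1 and 7.88 TPM in shGLUD1, against 3.54 and 2.74 TPM in shNT (0.84, SE 0.26, adjusted p = 0.0143; rescaled 0.20, adjusted p = 0.431). Neither pair of groups overlapped. The TPM call of SLC25A13 was lost without shGLUD1 replicate 2 (0.57, adjusted p = 0.0897) or shNT replicate 2 (0.70, adjusted p = 0.118), with no filter on low genes (adjusted p = 0.088) and under quantile normalization (0.08, adjusted p = 0.763). The rescaled call of SLC25A12 was lost without each library in turn (0.46 to 0.62, adjusted p between 0.0705 and 0.168), and SLC25A12 did not pass under quantile normalization (0.41, adjusted p = 0.091). That of SLC25A22 was lost without shGLUD1 replicate 1 (0.37, adjusted p = 0.106) or shNT replicate 2 (0.43, adjusted p = 0.0863).

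SLC25A18, the second glutamate carrier, stayed under the level tested, with 1.09 and 0.89 TPM in shGLUD1 and 0.66 and 1.29 TPM in shNT, which overlap. Glutamate carrier transcripts in this line were therefore mostly those of SLC25A22. The coding sequences of SLC25A22 and SLC25A18 were 67.5% identical, and the longest stretch they share without a mismatch was 20 bases.

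The enzymes that work with these carriers in the malate-aspartate shuttle were read beside them. Of 4, 3 rose on TPM and none fell (56.7% and 7.77% of all genes), and after rescaling 1 was higher and 1 lower (22.7% and 28.4% of all genes). Their median log2 fold change was 0.75, beside 0.63 for all genes. GOT2, the mitochondrial aspartate aminotransferase, was at 72.7 and 92.6 TPM in shGLUD1, against 29.7 and 26.9 TPM in shNT (1.50, adjusted p = 1.77e-05; rescaled 0.74, adjusted p = 0.00144). The malate dehydrogenases MDH1 and MDH2 rose on TPM by log2 fold changes of 0.88 and 0.62, and neither passed after rescaling (0.11 and -0.16). GOT1, the cytosolic aminotransferase, had a log2 fold change of 0.33 (adjusted p = 0.0532), and was lower after rescaling (-0.43, adjusted p = 0.0166).

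**Figure D2:**
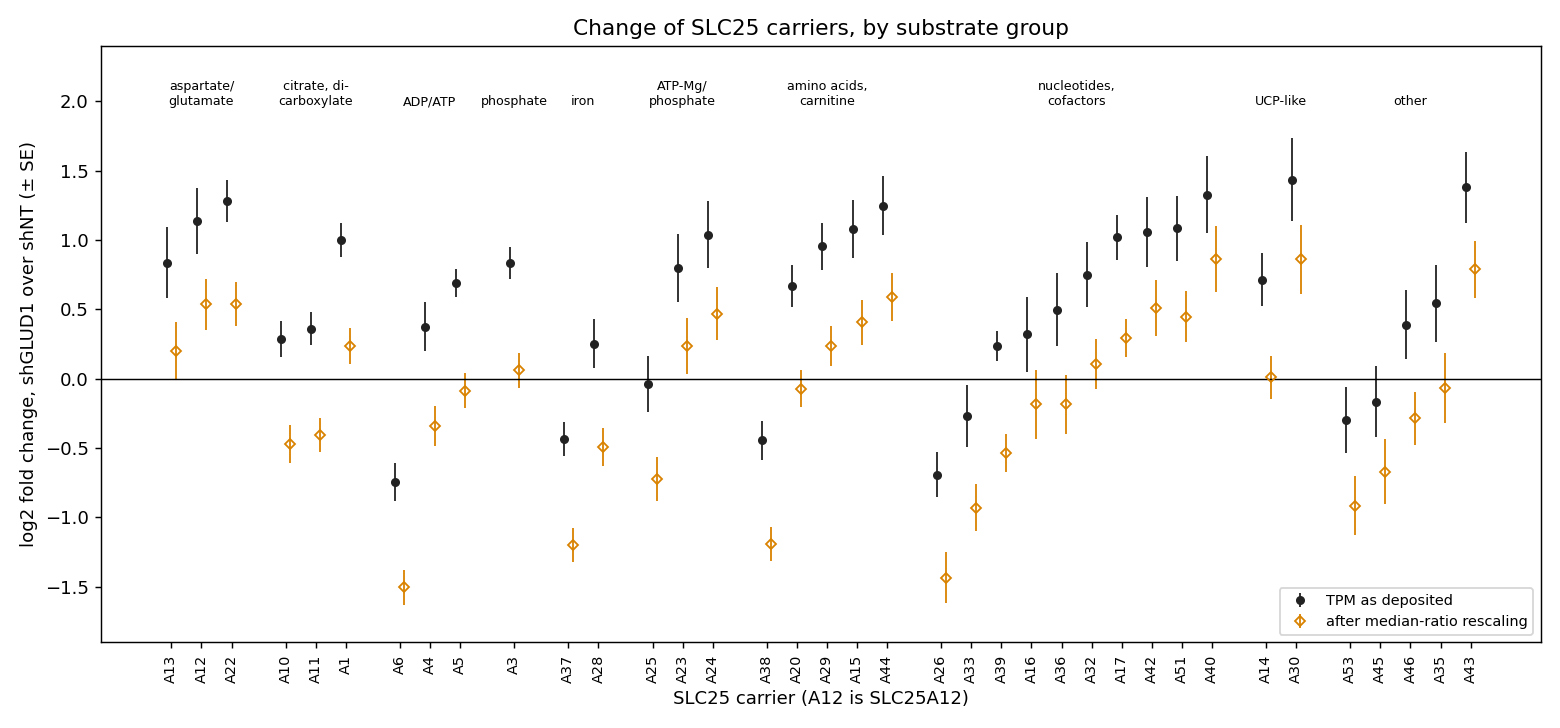
Log2 fold change of 37 tested carriers, shGLUD1 over shNT, with its SE, grouped by substrate; filled circles are TPM as deposited and open diamonds the values after median-ratio rescaling. Rescaling moves every carrier down, so SLC25A22 and SLC25A12 stay above 0, while SLC25A10 and SLC25A11 cross it and SLC25A6, SLC25A26, SLC25A37 and SLC25A38 lie lowest.

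Among the carriers of citrate and dicarboxylates, 2 of 3 tested members rose on TPM and none fell (56.7% and 7.77% of all genes). After rescaling 2 were lower and none higher (28.4% and 22.7% of all genes). SLC25A1, the citrate carrier (chromosome 22, 19175575 to 19178830, minus strand), exports citrate for fatty acid and sterol synthesis. It was at 100.1 and 101.7 TPM in shGLUD1, against 46.1 and 54.1 TPM in shNT. Every shGLUD1 value was well above every shNT value (1.00, SE 0.12, adjusted p = 6.13e-05), although the rescaled change did not pass (0.23, SE 0.13, adjusted p = 0.159). Under quantile normalization SLC25A1 was higher (0.63, limma adjusted p = 0.00399).

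SLC25A11, the oxoglutarate-malate carrier of the same shuttle (chromosome 17, 4937130 to 4940251, minus strand), was at 74.5 and 81.3 TPM in shGLUD1, against 56.2 and 64.9 TPM in shNT. It rose on TPM (0.36, SE 0.12, adjusted p = 0.0224) and was lower after rescaling (-0.40, SE 0.12, adjusted p = 0.0219). The TPM call was lost without shGLUD1 replicate 2 (0.30, adjusted p = 0.103), without shNT replicate 1 (0.26, adjusted p = 0.254) and without ribosomal protein genes (0.18, adjusted p = 0.208). It was also lost with no variance trend (adjusted p = 0.0957), with no filter on low genes (adjusted p = 0.0771) and under quantile normalization (-0.014, adjusted p = 0.922). The rescaled call was lost without shGLUD1 replicate 2 (-0.34, adjusted p = 0.0755) or shNT replicate 2 (-0.31, adjusted p = 0.16). SLC25A11 shares 244 exon bases with RNF167 on the opposite strand, which had 134 and 152 TPM in shGLUD1 and 171 and 157 TPM in shNT; its part was not tested.

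SLC25A10, the dicarboxylate carrier that exchanges malate and succinate for phosphate (ENSG00000183048, chromosome 17, 81712236 to 81721016, plus strand), was at 37.8 and 36.5 TPM in shGLUD1, against 29.1 and 31.6 TPM in shNT. The groups did not overlap, but the change did not pass on TPM (0.28, SE 0.13, adjusted p = 0.0783). With length and GC trends removed it passed (0.70, adjusted p = 0.00076), and it was lower after rescaling (-0.47, SE 0.13, adjusted p = 0.0177). The rescaled call was lost without shGLUD1 replicate 2 (-0.33, adjusted p = 0.0962) or shNT replicate 2 (-0.43, adjusted p = 0.073). Its second row (ENSG00000262660), which shares 1221 exon bases on the same strand, was listed at 0, so how reads were split between these rows is uncertain. SLC25A21, the oxodicarboxylate carrier, was listed at 0 in every library.

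Of 6 tested genes that make or use citrate, 5 rose on TPM and none fell (56.7% and 7.77% of all genes), and after rescaling 3 were higher and 1 lower (22.7% and 28.4% of all genes). Their median log2 fold change was 1.13, beside 0.63 for all genes. CS, citrate synthase, was at 22.5 and 25.0 TPM in shGLUD1, against 7.91 and 5.22 TPM in shNT (1.73, adjusted p = 5.84e-05; rescaled 1.02, adjusted p = 0.00265). ACLY, which splits exported citrate into acetyl-CoA and oxaloacetate, and IDH1, the cytosolic isocitrate dehydrogenase, rose by 1.25 and 1.19, and both passed after rescaling too (0.51 and 0.43).

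The ADP/ATP carriers exchange cytosolic ADP for ATP made in the matrix, and their 3 expressed members did not move together. SLC25A5 (ANT2, the form typical of dividing cells; chromosome X, 119468400 to 119471319, plus strand) was at 550.2 and 634 TPM in shGLUD1, against 381 and 351 TPM in shNT. SLC25A6 (ANT3; chromosome X, 1386152 to 1392724, minus strand) was at 33.3 and 39.1 TPM in shGLUD1, against 65.6 and 57.0 TPM in shNT. SLC25A4 (ANT1, the form of heart and muscle; chromosome 4, 185143241 to 185150382, plus strand) was at 12.5 and 13.9 TPM in shGLUD1, against 9.55 and 10.3 TPM in shNT. SLC25A5 and SLC25A4 were higher in both shGLUD1 libraries than in either shNT library, and SLC25A6 was lower in both.

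SLC25A5 rose on TPM (0.69, SE 0.10, adjusted p = 0.000195), and did not pass after rescaling (-0.09, SE 0.13, adjusted p = 0.587). SLC25A6 fell on TPM (-0.74, SE 0.14, adjusted p = 0.000793) and after rescaling (-1.50, SE 0.13, adjusted p = 8.42e-05), the lowest rescaled value among the 38 carriers. With trends in transcript length and GC content removed, SLC25A6 no longer passed (-0.36, adjusted p = 0.0601). SLC25A4 did not pass on TPM (0.37, SE 0.18, adjusted p = 0.0851) or after rescaling (-0.34, adjusted p = 0.074). SLC25A31, the testis form, was listed at 0 in every library.

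**Figure D3:**
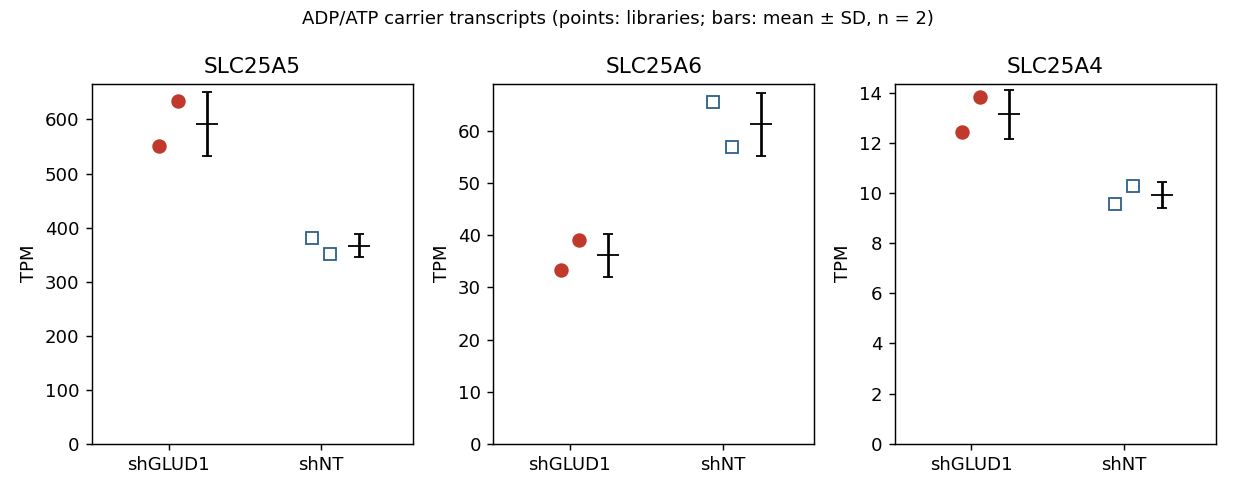
TPM of the ADP/ATP carriers SLC25A5, SLC25A6 and SLC25A4 in each library, with the mean ± SD (n = 2 libraries per group) beside the points; each panel has its own axis from 0. SLC25A5 averaged 592 ± 59.0 TPM in shGLUD1 and 366 ± 21.2 TPM in shNT, and SLC25A6 averaged 36.2 ± 4.1 TPM in shGLUD1 and 61.3 ± 6.1 TPM in shNT.

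Shares within the ADP/ATP carrier transcripts are the same under any single scaling factor per library, though not under quantile normalization, where the log2 fold changes were 0.70 for SLC25A5 and -1.21 for SLC25A6. SLC25A5 made up 92.32% and 92.29% of them in shGLUD1, against 83.5% and 83.9% in shNT, a difference of 8.57 percentage points. SLC25A6 made up 5.59% and 5.70% in shGLUD1, against 14.4% and 13.6% in shNT, and SLC25A4 2.09% and 2.02% in shGLUD1, against 2.09% and 2.46% in shNT. The libraries of a group lay close together for SLC25A5 and SLC25A6, and the groups were apart (exact permutation p = 0.33, the smallest possible). The coding sequences of SLC25A5 and SLC25A6 were 78.7% identical over 894 bases, with a longest shared stretch of 29 bases. Of 40 SLC25 pseudogene rows in the table, 38 were listed at 0 in all libraries, and none exceeded 0.79 TPM.

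SLC25A3 is the phosphate carrier, which brings the phosphate used by ATP synthase into the matrix (chromosome 12, 98593591 to 98606379, plus strand). It was at 361 and 449 TPM in shGLUD1, against 238 and 213 TPM in shNT. It rose on TPM (0.84, SE 0.12, adjusted p = 0.000155), and the rescaled value was 0.06 (SE 0.13, adjusted p = 0.705). Under quantile normalization it was higher (0.77, limma adjusted p = 0.00248), so the 2 scalings differ for this gene. Relative to the summed ADP/ATP carriers it stood at 0.605 and 0.654 in shGLUD1, against 0.52 and 0.51 in shNT, so that the phosphate carrier gained on them in shGLUD1 by a log2 difference of 0.29 (exact permutation p = 0.33).

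The mitoferrins import iron for heme and iron-sulfur clusters. SLC25A37 (mitoferrin-1, best known from red cell precursors) was at 49.4 and 53.6 TPM in shGLUD1, against 73.6 and 66.5 TPM in shNT. It fell on TPM (-0.44, SE 0.12, adjusted p = 0.00844) and after rescaling (-1.20, SE 0.12, adjusted p = 0.000168). The TPM call was lost without shNT replicate 1 (-0.36, adjusted p = 0.125) and with no variance trend (adjusted p = 0.0505). SLC25A28 (mitoferrin-2, the broadly expressed form; chromosome 10, 99610522 to 99620609, minus strand) was at 20.3 and 28.6 TPM in shGLUD1, against 20.07 TPM in each shNT library. It did not pass on TPM (0.25, SE 0.18, adjusted p = 0.23), and passed with length and GC trends removed (0.67, adjusted p = 0.00542). Without shGLUD1 replicate 1 it also passed (0.49, adjusted p = 0.0233), but the spread then comes only from the equal shNT values and the fit over all genes. It was lower after rescaling (-0.49, SE 0.14, adjusted p = 0.0172), a call lost without shGLUD1 replicate 1 (-0.34, adjusted p = 0.0905). Mitoferrin-1 was thus the more abundant of the pair in every library.

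Of 10 tested genes that use iron in mitochondria, 6 rose on TPM and none fell (56.7% and 7.77% of all genes). After rescaling 2 were higher and 6 lower (22.7% and 28.4% of all genes). Their median log2 fold change was 0.30, beside 0.63 for all genes. NFS1, the cysteine desulfurase that supplies the sulfur of iron-sulfur clusters, was at 55.5 and 69.5 TPM in shGLUD1, against 29.5 and 24.8 TPM in shNT, and rose by 1.17 (rescaled 0.41, adjusted p = 0.0308). FECH, which inserts iron to form heme, rose on TPM by 0.75 and did not pass after rescaling (0.05).

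Among carriers of amino acids and carnitine, 4 of 5 tested members rose on TPM and 1 fell (56.7% and 7.77% of all genes). SLC25A44, a carrier of branched-chain amino acids, was at 9.1 and 9.89 TPM in shGLUD1, against 3.74 and 3.12 TPM in shNT. It rose on both scales (1.25, SE 0.21, adjusted p = 0.000552; rescaled 0.59, SE 0.17, adjusted p = 0.0206), but the rescaled call was lost without either shGLUD1 library or shNT replicate 2 (0.48 to 0.64, adjusted p between 0.0657 and 0.108). It did not pass under quantile normalization (0.48, adjusted p = 0.0529). The ornithine carrier SLC25A15, the basic amino acid carrier SLC25A29 and the carnitine-acylcarnitine carrier SLC25A20 rose on TPM by 1.08, 0.95 and 0.67, and none of the 3 passed after rescaling (0.41, 0.24 and -0.07).

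SLC25A38, the glycine carrier that supplies heme synthesis (chromosome 3, 39383324 to 39397351, plus strand), was the 1 that fell. It was at 22.2 and 25.0 TPM in shGLUD1, against 32.9 and 32.0 TPM in shNT, without overlap (-0.44, SE 0.14, adjusted p = 0.0166; rescaled -1.19, SE 0.12, adjusted p = 0.000172). The TPM call was lost without shNT replicate 1 (-0.43, adjusted p = 0.139) or shNT replicate 2 (-0.46, adjusted p = 0.101), and with length and GC trends removed (-0.36, adjusted p = 0.0595). SLC25A38 and SLC25A37, which both serve heme synthesis, were therefore lower on both scales. ALAS1, the enzyme that joins glycine to succinyl-CoA at the start of that pathway, did not pass on TPM (log2 fold change -0.06). After rescaling ALAS1 was lower (-0.82, limma adjusted p = 0.00109). FECH, which inserts iron to form heme, went the other way on TPM (0.75) and did not pass after rescaling (0.05). A shared change of heme synthesis genes was not tested.

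Of 11 tested carriers of nucleotides and cofactors, 5 rose and 1 fell on TPM (56.7% and 7.77% of all genes). After rescaling 1 was higher and 4 lower (22.7% and 28.4% of all genes). SLC25A26 carries S-adenosylmethionine, the methyl donor, into the matrix. It was at 22.0 and 16.7 TPM in shGLUD1, against 32.0 and 31.2 TPM in shNT, with no overlap (-0.69, SE 0.16, adjusted p = 0.00339; rescaled -1.44, SE 0.18, adjusted p = 0.000439). It shares 907 exon bases with LRIG1 on the opposite strand, which had 3.46 and 4.69 TPM in shGLUD1 and 1.83 and 1.53 TPM in shNT; the counting is not stated to use strand, so reads there cannot be assigned to either gene. Shorter overlaps with an opposite-strand gene averaging 1 TPM or more concern SLC25A12 (METAP1D), SLC25A40 (DBF4), SLC25A30 (TPT1-AS1), SLC25A29 (RP11-638I2), SLC25A32 (DCAF13) and SLC25A25 (NAIF1). SLC25A35 shares 1293 exon bases with RANGRF. DBF4 had 3.1 and 7.8 TPM in shGLUD1, against 1.37 and 1.18 TPM in shNT. DCAF13 and RANGRF averaged 43.3 and 75.4 TPM, far above SLC25A32 (5.14 TPM) and SLC25A35 (3.81 TPM). The part of these partners in the carrier values was not tested.

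SLC25A40 and SLC25A39 are the carriers linked to mitochondrial glutathione import. SLC25A40 was at 2.53 and 4.22 TPM in shGLUD1, against 0.9 and 0.54 TPM in shNT, and rose on both scales (1.33, SE 0.28, adjusted p = 0.00183; rescaled 0.86, SE 0.24, adjusted p = 0.0162). Its rescaled call was lost without shGLUD1 replicate 2 (0.65, adjusted p = 0.116) or shNT replicate 2 (0.70, adjusted p = 0.065). SLC25A39, far more abundant at 152 and 145 TPM in shGLUD1 and 118 and 134 TPM in shNT, did not pass on TPM (0.23, adjusted p = 0.0723) and was lower after rescaling (-0.54, adjusted p = 0.0106), a call lost without shNT replicate 2 (-0.46, adjusted p = 0.0638).

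Other carriers of this group that rose on TPM were the peroxisomal carrier SLC25A17 (1.02), the NAD carrier SLC25A51 (1.08), the coenzyme A carrier SLC25A42 (1.06) and the folate carrier SLC25A32 (0.75). Their rescaled values, between 0.11 and 0.51, did not pass. SLC25A33, a pyrimidine nucleotide carrier, was at 4.39 and 5.8 TPM in shGLUD1, against 6.6 and 6.03 TPM in shNT; it did not pass on TPM (-0.27, adjusted p = 0.3) and was lower after rescaling (-0.93, adjusted p = 0.00228). SLC25A36, the other pyrimidine nucleotide carrier, and SLC25A16 passed on neither scale. SLC25A52, a close relative of SLC25A51, was listed at 0.

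In the ATP-magnesium/phosphate group, whose members adjust the adenine nucleotide pool of the matrix in response to calcium, SLC25A24 and SLC25A23 rose on TPM (1.04 and 0.80; rescaled 0.47 and 0.24, not passing). SLC25A25 had 6.77 and 8.09 TPM in shGLUD1, against 7.85 and 7.41 TPM in shNT, which overlap (-0.04, adjusted p = 0.879; rescaled -0.72, adjusted p = 0.00503). SLC25A23 lost its TPM call without shGLUD1 replicate 2, shNT replicate 1 or shNT replicate 2 (0.67 to 0.90, adjusted p between 0.0563 and 0.144). SLC25A32 of the cofactor group lost its call without the same libraries (0.55 to 0.82, adjusted p between 0.0636 and 0.127).

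SLC25A30, a carrier described in kidney mitochondria (chromosome 13, 45393316 to 45418455, minus strand), had the largest log2 fold change of the 38 on log2(TPM + 1); with a pseudocount of 0.1, SLC25A40 stood above it (2.07, against 1.86 for SLC25A30). It was at 4.23 and 8.16 TPM in shGLUD1, against 1.28 and 1.87 TPM in shNT (1.44, SE 0.30, adjusted p = 0.00174; rescaled 0.86, SE 0.25, adjusted p = 0.0191), and did not pass with no filter on low genes (adjusted p = 0.0512). The shGLUD1 libraries stood well apart from each other, although both were above shNT, and the rescaled call was lost without shGLUD1 replicate 2 (0.56, adjusted p = 0.146). SLC25A43, a carrier without a settled substrate (chromosome X, 119399060 to 119454478, plus strand), was at 5.34 and 7.35 TPM in shGLUD1, against 1.49 and 2.14 TPM in shNT (1.38, SE 0.25, adjusted p = 0.000851; rescaled 0.79, SE 0.21, adjusted p = 0.0123); its rescaled call was lost without shGLUD1 replicate 2 (0.68, adjusted p = 0.083) or shNT replicate 1 (0.62, adjusted p = 0.0554).

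SLC25A14, an uncoupling-protein relative, rose on TPM (0.71, adjusted p = 0.0076) but not without shNT replicate 2 (0.61, adjusted p = 0.102), and its rescaled value was 0.01. SLC25A35 and SLC25A46 passed on neither scale. SLC25A45 and SLC25A53 did not pass on TPM and were lower after rescaling (-0.67 and -0.92), but SLC25A53 was not without shGLUD1 replicate 2 (-0.67, adjusted p = 0.0584). SLC25A45 was not without shGLUD1 replicate 2 (-0.40, adjusted p = 0.242), shNT replicate 1 (-0.63, adjusted p = 0.0926) or shNT replicate 2 (-0.76, adjusted p = 0.0554). SLC25A2, SLC25A48, SLC25A27, SLC25A34, SLC25A41 and SLC25A47 were not tested, the first pair being listed at 0 in every library and the others at no more than 0.87 TPM in any.

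Ratios of related carriers within a library do not change with a single scaling factor per library, but can change under quantile normalization. The 6 pairs given were chosen after their values were seen, so that their groups lie apart is a description only. The ratio of SLC25A5 to SLC25A6 was 16.5 and 16.2 in shGLUD1, against 5.81 and 6.16 in shNT, a change of 2.73-fold. SLC25A24 relative to SLC25A25 stood at 0.589 and 0.653 in shGLUD1, against 0.215 and 0.237 in shNT (2.74-fold). SLC25A28 relative to SLC25A37 stood at 0.41 and 0.532 in shGLUD1, against 0.273 and 0.302 in shNT (1.63-fold).

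SLC25A36 relative to SLC25A33 stood at 1.41 and 1.99 in shGLUD1, against 0.889 and 0.922 in shNT (1.84-fold). SLC25A12 relative to SLC25A13 stood at 1.02 and 0.871 in shGLUD1, against 0.576 and 0.843 in shNT (1.35-fold), where the nearest libraries almost touched. SLC25A40 relative to SLC25A39 stood at 0.0166 and 0.0292 in shGLUD1, against 0.0076 and 0.00403 in shNT (3.98-fold), with a numerator under 1 TPM in shNT. Each exact permutation test gave p = 0.33, also after adjustment over the 6 pairs, and no smaller value is possible with 2 libraries per group.

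**Figure D4:**
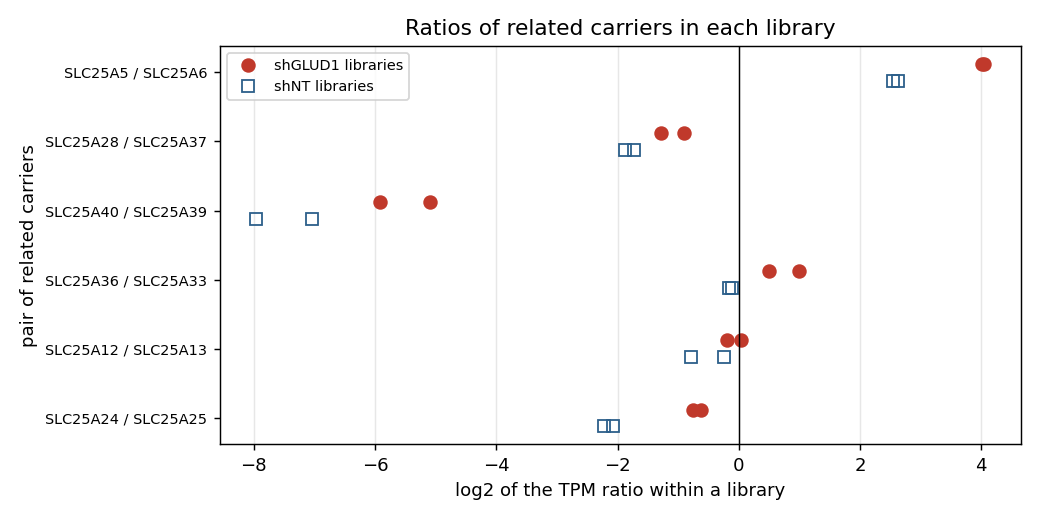
Log2 of the TPM ratio of 6 pairs of related carriers, computed within each library; filled circles are the 2 shGLUD1 libraries and open squares the 2 shNT libraries. The ratio of SLC25A5 to SLC25A6 shows tight groups far apart (means of 4.03 in shGLUD1 and 2.58 in shNT, log2), while for SLC25A12 to SLC25A13 the groups nearly meet.

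The family has members under other symbols, of which 3 of 5 were tested, and 2 rose on TPM (56.7% of all genes). UCP2, an uncoupling protein relative, and MTCH2, an outer membrane insertase, rose on TPM by 0.94 and 0.85 (rescaled 0.23 and 0.08, not passing). MTCH1 did not pass on TPM (0.15, adjusted p = 0.22) and was lower after rescaling (-0.61, adjusted p = 0.00239). Of 10 tested genes for the import of carriers into the inner membrane, 5 rose and 3 fell on TPM (56.7% and 7.77% of all genes). After rescaling 2 were higher and 5 lower (22.7% and 28.4% of all genes). TIMM9, a small chaperone of the intermembrane space, was at 37.0 and 39.9 TPM in shGLUD1, against 13.5 and 13.6 TPM in shNT (1.44, adjusted p = 2.25e-05; rescaled 0.70, adjusted p = 0.00207). TOMM70A, the outer membrane receptor for carrier precursors, rose by 1.25 (rescaled 0.55, adjusted p = 0.0168). AGK, a part of the TIM22 complex, rose by 1.16 on TPM only (rescaled 0.50, adjusted p = 0.062). The 3 that fell were the small intermembrane space proteins TIMM10B (-0.94; rescaled -1.69), TIMM13 (-0.70; rescaled -1.48) and TIMM8B (-0.65; rescaled -1.42), each past the threshold on both scales.

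Of 6 tested metabolite carriers of the inner membrane outside the family, 2 rose and 1 fell on TPM (56.7% and 7.77% of all genes). After rescaling 1 was higher and 4 lower (22.7% and 28.4% of all genes). SFXN3, a sideroflexin, was at 28.2 and 32.6 TPM in shGLUD1, against 7.56 and 8.58 TPM in shNT (1.79, adjusted p = 1.63e-05; rescaled 1.06, adjusted p = 0.000438). SFXN1, which imports serine, rose on TPM (0.95; rescaled 0.20, not passing). MPC2, a subunit of the mitochondrial pyruvate carrier, was at 113 and 122 TPM in shGLUD1, against 155 and 146 TPM in shNT, and fell (-0.35, adjusted p = 0.011; rescaled -1.13, adjusted p = 0.000185).

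Length and GC content of the transcript were set beside the changes. Over the 37 tested carriers with an annotated transcript, Spearman's rho of the TPM log2 fold change was 0.12 with transcript length and -0.25 with GC content, beside 0.39 and -0.20 over 12258 genes. These are descriptions over genes that share the same 4 libraries. The 21 carriers that rose had a median transcript length of 2891 bases and the 4 that fell one of 2410 bases.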

How the data were processed

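RNA-seq libraries (TruSeq V2, per the labels' protocols) were grouped by the hairpin in the sample titles. The authors deposited 1 table of TPM for 57820 genes, whose columns each sum to 1000000; read depth is unknown, so no counting interval or detection limit can be given. Bowtie 0.12.2 and 2 builds, hg38 and mm8, are named in the submitters' processing notes with no role; which quantifier and annotation were used is not given in the sources used here. From these values log2(TPM + 1) was computed, so changes of weakly expressed genes are understated. The 12524 genes averaging 1 TPM or more were fitted with limma 3.58.1 (variance trend; R 4.3.3), group as the only term, two-sided, Benjamini-Hochberg adjusted over all genes, threshold 0.05. With 2 libraries per group limma borrows spread across genes (median prior 8.8 degrees of freedom), and the fit was checked on simulated data. Median-ratio factors (log2) were 0.28 and 0.50 for shGLUD1 and -0.40 and -0.38 for shNT.

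Coordinates and transcripts came from GENCODE 29 on GRCh38, matched by identifier (52338 matched), and promoters from RefSeq; the table's own build is uncertain, so no coordinate is the authors'. Python 3.11.15 with scipy 1.17.1 and Biopython 1.88 did the rest. Carriers, substrate groups and companion lists were chosen with earlier results of these data known. Values per library are given for all tested members of the aspartate/glutamate, citrate, ADP/ATP, phosphate and iron groups, for others called alike on both scales or lower on TPM, and for further members chosen after their values were seen; of companion lists, at most 3 passing genes with the largest TPM change, plus GOT1, ALAS1, MTCH1, TIMM10B, TIMM13 and TIMM8B, chosen after their values were seen. Alternatives were another pseudocount, no or a stricter filter, 4 other scalings or corrections, no variance trend, a replicate block and leaving out each library. Some genes of these lists are counted but not reported here by name.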

Additional observations from a re-analysis of the deposited data

How the results depend on the processing

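The number of carriers that rose on TPM (21) was 13 at a mean of at least 5 TPM, where fewer genes were tested, 6 after median-ratio rescaling and 7 under quantile normalization; over the fits that leave out 1 library it ran from 17 to 24. The number that fell (4) was 13 after rescaling, 9 after quantile normalization, and 2 once trends with length and GC content were taken out, and ran from 2 to 4 with each library left out. After rescaling, the 6 higher became 1 to 4 and the 13 lower 8 to 12 with each library left out, an alternative chosen after seeing the data. The log2 ratio of summed carrier TPM (0.53) was -0.24 after rescaling and 0.35 without ribosomal protein genes. The share of all genes called also differed between settings. At a mean of at least 5 TPM, 13 of 26 tested carriers rose, against 59.7% of all genes. Under quantile normalization 18.4% of carriers were higher, against 23.5% of all genes, and 23.7% were lower, against 22.1%. With length and GC trends removed, 25 carriers rose (67.6%, against 64.5% of all genes) and 5.41% fell, against 4.77% of all genes. With no filter on low values, 16 carriers rose (37.2%, against 24.1% of all genes). The cause of these shifts was not tested.

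Signs turned after rescaling for SLC25A4 (-0.34), SLC25A5 (-0.087), SLC25A10 (-0.47), SLC25A11 (-0.40) and SLC25A28 (-0.49), and under quantile normalization for SLC25A4 (-0.34), SLC25A10 (-0.25), SLC25A11 (-0.014) and SLC25A28 (-0.35); quantile normalization left SLC25A5 at 0.70. Of the values recomputed for the 18 carriers given by the naming rule, 196 kept direction and call, 9 turned, 21 lost their call and 3 gained one. With the replicate number as a block, 23 carriers rose (60.5%, against 59.0% of all genes) and 4 fell (10.5%, against 8.47%). No call of the 18 changed in that fit. Same-numbered libraries share only a number (correlation of deviations 0.04).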
